A study of Mus musculus with 27 samples.

Results

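The transcriptional response of WT unpolarized macrophages to tumor-conditioned medium was measured by comparing 3 libraries of M0 macrophages exposed to medium conditioned by MPNST cells (MPNST-CM) with 3 libraries of M0 macrophages kept in control medium. These 6 libraries of batch 1 as labelled, of 27 in the series, were taken by their titles. All 13614 genes that passed the filter on low counts, of 50559 in the table, were tested. M0 (Mφ in the study) are bone marrow-derived macrophages of C57BL/6 female mice aged 3 to 4 months, matured for 4 and then 3 more days in medium holding L929-conditioned medium as the source of M-CSF. The cells then spent 48 h in 10 mL of MPNST-CM, renewed at 24 h, whereas the labels name DMEM for the control group. MPNST-CM came from sMPNST cells, a single murine line raised from tumors of skin-derived precursors that lack Nf1 and p53, so the response is to the medium of 1 tumor line. That medium was also used by growing cells before it reached the macrophages, so what the tumor cells released and what they consumed cannot be told apart. The other groups of the series carry a TRAP1 deletion (TRAP1 KO), were polarized for 24 h with IL-4 at 10 ng/mL (M2), or both, and they are used here only to estimate the spread and for a comparison of responses at the end.

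Malignant peripheral nerve sheath tumors form a group of sarcomas, MPNSTs, that arise in the Schwann cell lineage, often in neurofibromatosis type 1, and hold many macrophages. Macrophages sense a tumor through soluble signals and metabolites, and answer by changing the chemokines they secrete, their antigen presentation machinery and their lipid and glucose metabolism. Sterol and fatty acid enzymes are driven by SREBP factors when membrane sterol falls, glycolytic genes by HIF-1 and MYC, amino acid and stress genes by ATF4, and MHC class II genes by CIITA.

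Levels are given as CPM, library-size-normalised counts scaled by TMM factors. A fold change is given on the log2 scale as MPNST-CM over control, followed by an approximate standard error (SE). This SE was worked back from the edgeR test, as the size of the log2 fold change divided by the square root of its F value. A gene is called when its adjusted p in edgeR is under 0.05. Values given as 1 level to another are the means of 3 control and 3 MPNST-CM libraries, and 3 values in a row are replicates 1, 2 and 3. Libraries held 7037684 to 8452051 counts, so 3 counts, taken as the smallest detectable signal in a library, corresponded to 0.323 to 0.391 CPM. Trap1, the gene deleted elsewhere in the series, read 13.4, 11.6 and 11.6 CPM in the control libraries and 16.7, 11.18 and 13.7 CPM in MPNST-CM (log2 fold change 0.18 ± 0.18, adjusted p = 0.536), and was present in all 6 libraries. Replicate 1 of both groups stood apart from replicates 2 and 3, as the chi-square of their counts divided by its degrees of freedom was 16.04 to 26.5 against the other 2 replicates, compared with 2.11 and 2.75 between those 2. Malat1, a nuclear RNA, marked that split at 6939, 2419 and 2308 CPM in the control libraries and 6431, 2142 and 2204 CPM in MPNST-CM. Within groups the Spearman rho between libraries was 0.978 to 0.992, and between groups 0.965 to 0.980.

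Macrophage markers were present in all 6 libraries. All 12 macrophage markers passed the filter, with a summed level of 13880 to 15126 CPM in control and 12927 to 13410 CPM in MPNST-CM. Of these, Aif1, Mertk, Adgre1, Sirpa and Csf1r fell and Cd33 rose, while Lyz2 (3409.8, 3666 and 3746 CPM in control, 3771, 3246 and 3465 CPM in MPNST-CM) and Cd68 were not called. Aif1, a cytoskeletal protein, fell most, from 170.0, 163 and 167 CPM to 82.4, 71.7 and 78.7 CPM (log2 fold change -1.10 ± 0.09, adjusted p = 2.25e-09). In bulk libraries, fewer cells of a type and less RNA per cell cannot be told apart. The part of changes in cell makeup in the results was not tested. Of 12 neutrophil markers 4 were tested and 1, S100a9, was higher, a call lost without any single library other than MPNST-CM replicate 1, with a summed level of 7.60 to 11.1 CPM in control and 8.95 to 9.73 CPM in MPNST-CM, and 2 had no count. The 10 fibroblast markers summed to at most 2.21 CPM, the 8 T and NK cell markers to at most 2.74 CPM with 4 at 0 (Cd2 higher and Klrb1c lower, the latter lost without MPNST-CM replicate 1 or 3 or control replicate 2), the 6 B cell markers to at most 3.99 CPM with 4 at 0, and the 7 red cell precursor markers to at most 1.10 CPM. The 7 mast cell markers summed to 0.736 to 3.26 CPM in control and 2.32 to 3.34 CPM in MPNST-CM. Of 8 endothelial markers 2 were tested and 1 was called. This was Kdr, a VEGF receptor, which was higher and made most of the list's summed level of 18.5 to 23.5 CPM in control and 52.9 to 61.0 CPM in MPNST-CM (18.2, 16.3 and 20.96 CPM against 56.4, 51.6 and 50.7 CPM), while 3 of the 8 were at 0. The 8 dendritic cell markers summed to 10.0 to 17.5 CPM in control and 7.95 to 9.92 CPM in MPNST-CM, with Ccr7 higher and Siglech lower. The 8 osteoclast markers summed to 111 to 132 CPM and 89.3 to 93.6 CPM, with 4 lower, or 2 without control replicate 2 or 3 or MPNST-CM replicate 2. The 10 Schwann cell lineage markers summed to 79.5 to 88.5 CPM in control and 73.7 to 98.1 CPM in MPNST-CM, with 3 at 0.

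MPNST-CM changed the level of many genes, most by a moderate amount. Of the 13614 genes tested, 2889 were called (21.2% of those tested), of which 1533 were higher (11.3%) and 1356 lower (9.96%) in MPNST-CM. These shares are the background for all counts of list members given below. The median log2 fold change over all genes was -0.02, and the median size of the change among called genes was 0.55 on the log2 scale. A change of at least 1 on the log2 scale was reached by 523 called genes (3.84%), of which 211 rose (1.55%) and 312 fell (2.29%). The 3 libraries of a group did not overlap with those of the other group for 4532 genes (33.3%). Without replicate 1 of both groups, a setting chosen after seeing the data, 2075 genes were called. A fit of all 27 libraries added a WT M0 control library and TRAP1 KO M2 libraries of batch 2, with no term for batch. It called 958 genes, and 151 of the 246 called genes that the naming rule selects lost their call in it. Of the 20 largest changes 8 lost it, namely Plxdc2, Tmem176b, Sult1a1, Ppbp, Trem1, Thbs1, Scd1 and F5.

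**Figure D1:**
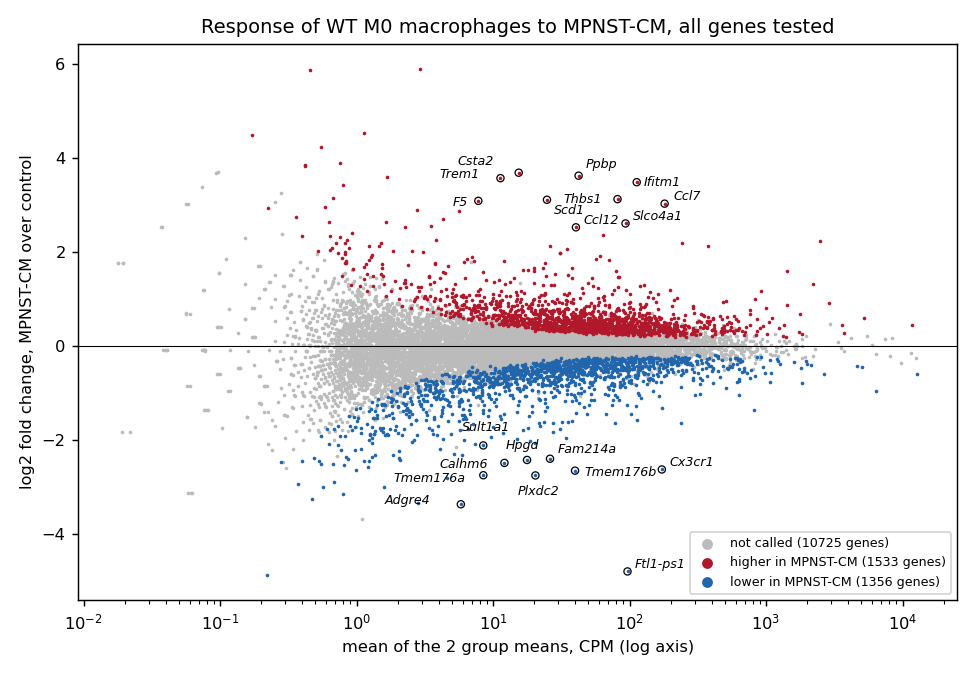
Log2 fold change of MPNST-CM over control in WT M0 macrophages (vertical axis) against the mean of both group means in CPM (horizontal log axis), 1 point per gene tested. Red and blue points are the 1533 higher and 1356 lower genes, grey points were not called, and circled points are the 10 largest rises and 10 largest falls at 10 CPM or more.

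The largest rises among genes at 10 CPM or more were in a stefin, chemokines, membrane proteins, other secreted proteins and a lipid enzyme, Scd1. Csta2, a cytosolic inhibitor of cysteine proteases, read 1.72, 3.65 and 1.37 CPM in control and 25.2, 29.8 and 30.6 CPM in MPNST-CM (log2 fold change 3.69 ± 0.25, adjusted p = 2.92e-11). Trem1, a receptor that amplifies inflammatory signalling, read 1.84, 1.69 and 1.71 CPM and 19.5, 22.5 and 20.8 CPM (log2 fold change 3.57 ± 0.20, adjusted p = 4.44e-13). For both, every MPNST-CM library lay far above every control library. Ifitm1, an interferon-inducible membrane protein, read 19.99, 18.1 and 17.4 CPM in control and 234, 186 and 202 CPM in MPNST-CM (log2 fold change 3.48 ± 0.12, adjusted p = 4.21e-17), the smallest p of all genes. Thbs1, the matrix glycoprotein thrombospondin 1, read 16.4, 17.3 and 16.6 CPM in control and 124, 155 and 159.6 CPM in MPNST-CM (log2 fold change 3.12 ± 0.15, adjusted p = 1.40e-13). Coagulation factor V (F5) read 0.981, 2.08 and 1.82 CPM and 16.2, 15.4 and 10.2 CPM (log2 fold change 3.09 ± 0.22, adjusted p = 1.28e-10). Groups that do not overlap were required of the 10 largest rises and falls. Among the rises given so far, the MPNST-CM libraries of F5 were the most uneven. Slco4a1, an organic anion transporter, rose 6.09-fold, from 21.96, 29.1 and 28.02 CPM to 142, 171 and 168 CPM (adjusted p = 2.25e-14).

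The largest falls were mostly in receptors and other membrane proteins. Adgre4, an adhesion receptor related to F4/80, read 9.44, 9.38 and 12.99 CPM in control and 0.579, 1.27 and 1.19 CPM in MPNST-CM (log2 fold change -3.37 ± 0.36, adjusted p = 1.14e-07). The paired membrane proteins Tmem176a and Tmem176b fell together. Tmem176b read 69.2, 69.6 and 67.6 CPM against 11.9, 13.4 and 7.55 CPM (log2 fold change -2.65 ± 0.17, adjusted p = 2.03e-11). Tmem176a read 14.8, 14.5 and 15.04 CPM against 2.89, 1.61 and 2.05 CPM (log2 fold change -2.75 ± 0.19, adjusted p = 5.46e-11). Plxdc2, a plexin domain membrane protein, fell from 33.2, 35.2 and 38.4 CPM to 5.09, 5.07 and 5.61 CPM (log2 fold change -2.76 ± 0.13, adjusted p = 5.04e-14). Calhm6 (-2.49), the prostaglandin-degrading enzyme Hpgd (-2.43), Fam214a (-2.40), the sulfotransferase Sult1a1 (-2.12) and the receptor Cx3cr1 (-2.63) were also among the 10 largest falls. Separate libraries of both groups were a condition for entering these 10. The numerically largest fall, of the ferritin pseudogene Ftl1-ps1, rested on uneven control libraries. It read 423, 9.12 and 128 CPM in control and 5.91, 7.49 and 6.68 CPM in MPNST-CM (log2 fold change -4.80 ± 0.82, adjusted p = 0.000423). Its adjusted p was 0.106 in the fit of the 6 compared libraries alone, and a pseudogene shares reads with its parent, so the value is uncertain. The parent gene Ftl1 was not called (1704, 1712 and 1984 CPM against 2812, 1451 and 2016 CPM).

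**Figure D2:**
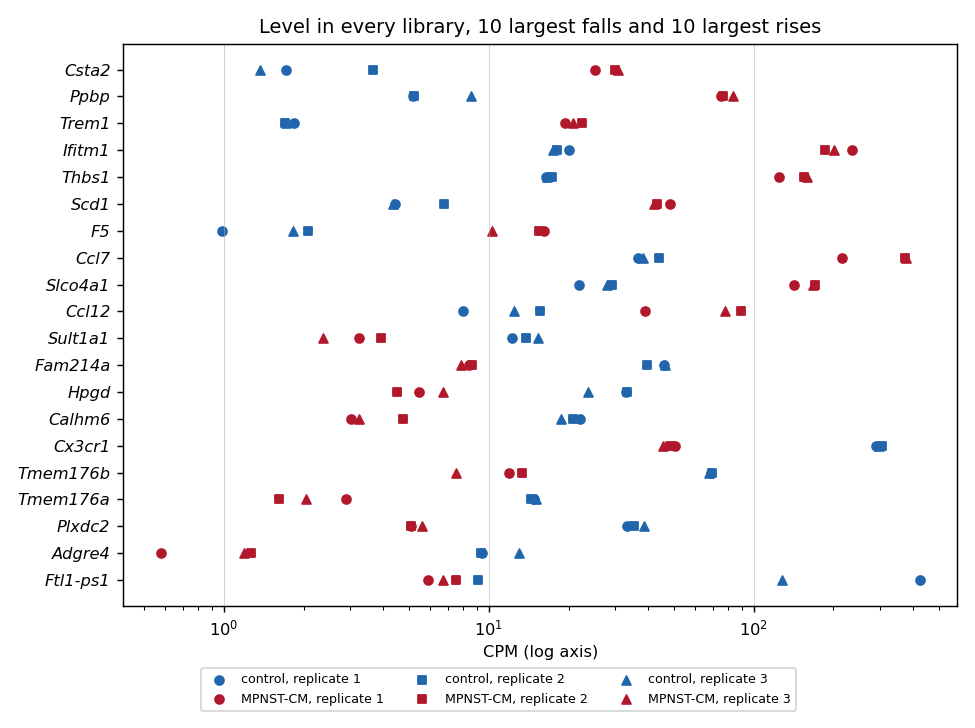
CPM (horizontal log axis) of the 10 largest rises and 10 largest falls in each of the 6 libraries, with blue for control, red for MPNST-CM and the marker shape for the replicate number. Groups are separate for each of the 20 genes because the rule that chose them required it, and the control libraries of Ftl1-ps1 spread from 9.12 to 423 CPM.

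Cybb, the catalytic subunit of the phagocyte NADPH oxidase, and the fungal sugar receptor Clec7a were among the 5 falls with the smallest p. Cybb fell from 1098, 1183 and 1210.0 CPM to 426, 479 and 459 CPM (log2 fold change -1.36 ± 0.07, adjusted p = 1.21e-13). Clec7a fell from 178, 164 and 168 CPM to 58.9, 58.4 and 53.5 CPM (log2 fold change -1.58 ± 0.08, adjusted p = 2.32e-13). For both, the highest MPNST-CM library was below the lowest control library by more than the spread within either group.

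Most CC chemokines rose, while several chemokine receptors fell. Of 12 CC chemokines tested, 8 were higher and 1 lower (median log2 fold change 1.24, against -0.02 over all genes), and 2 were lower without MPNST-CM replicate 1. Ccl2, the main ligand of CCR2, read 113, 155 and 154 CPM in control and 296, 784 and 761 CPM in MPNST-CM (log2 fold change 2.13 ± 0.28, adjusted p = 2.80e-05). Replicate 1 of MPNST-CM was lower than the other 2, and the log2 fold change without it was 2.46. Ccl7 read 36.4, 43.9 and 38.2 CPM against 216, 373 and 377 CPM (log2 fold change 3.03 ± 0.19, adjusted p = 3.09e-10). Ccl12 read 7.97, 15.6 and 12.4 CPM against 39.02, 89.8 and 77.95 CPM (log2 fold change 2.52 ± 0.27, adjusted p = 1.18e-06). These ligands of CCR2 share the low value in replicate 1 of MPNST-CM, which still lay above every control library. Ccl6 read 727, 709 and 707 CPM against 2308, 2006 and 2155 CPM (log2 fold change 1.59 ± 0.07, adjusted p = 2.09e-15). Ccl9 (1015 to 1855 CPM, log2 fold change 0.87 ± 0.08), Ccl3 (84.1 to 156 CPM, log2 fold change 0.89 ± 0.10) and Ccl4 (60.2 to 105 CPM, log2 fold change 0.81 ± 0.11) rose less, and Ccl8 rose at a low level (0.613, 0.521 and 1.03 CPM against 3.01, 1.73 and 2.26 CPM). Ccl5, a chemokine that attracts T cells and monocytes, fell from 13, 13.7 and 11.7 CPM to 4.4, 6.8 and 6.79 CPM (log2 fold change -1.09 ± 0.17, adjusted p = 2.25e-05). Ccl17, Ccl22 and Ccl24, which IL-4 induces, stayed at or near the floor: Ccl17 read 0, 0 and 0 CPM and 0.232, 0 and 0.108 CPM, Ccl22 0.736, 0.651 and 1.25 CPM and 0.579, 1.498 and 0.431 CPM, and Ccl24 0.736, 1.69 and 1.03 CPM and 1.04, 0.346 and 0.431 CPM.

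Among 11 CXC and CX3C chemokines tested, 4 were higher and 4 lower. Pf4 (platelet factor 4) and Ppbp (platelet basic protein), chemokines named for platelets, rose. Pf4 read 803, 902 and 907 CPM in control and 4183, 4221 and 3924 CPM in MPNST-CM (log2 fold change 2.24 ± 0.11, adjusted p = 1.11e-13). Ppbp read 5.15, 5.21 and 8.54 CPM and 75.03, 76.5 and 83.5 CPM (log2 fold change 3.62 ± 0.22, adjusted p = 1.56e-10). Cxcl2, which attracts neutrophils, rose to 31.7, 43.9 and 43.99 CPM from 18.2, 14.98 and 15.3 CPM (log2 fold change 1.31 ± 0.22, adjusted p = 0.000257). The interferon-induced Cxcl10 went the other way (86.1, 102 and 100.3 CPM against 45.9, 64.1 and 54.6 CPM, log2 fold change -0.81 ± 0.14, adjusted p = 9.12e-05), and so did the scavenger chemokine Cxcl16 (118 to 77.7 CPM, log2 fold change -0.61 ± 0.09). The lower count became 2 without control replicate 2 and also without MPNST-CM replicate 2. Of 13 chemokine receptors, 5 were lower and 1 higher (46.2% called, beside 21.2% of all genes). Cx3cr1, the fractalkine receptor, read 288, 305 and 297 CPM against 50.4, 48.2 and 45.5 CPM (log2 fold change -2.63 ± 0.12, adjusted p = 1.73e-14). Ccr2 read 358, 369.6 and 360.1 CPM against 102, 126 and 121 CPM (log2 fold change -1.64 ± 0.12, adjusted p = 1.77e-10). Ccl2 and its receptor Ccr2 therefore moved in opposite directions in the same libraries. Cxcr4 (112 to 67.5 CPM, log2 fold change -0.73 ± 0.10) also fell, and the complement C5a receptor C5ar1 rose from 298, 376 and 367 CPM to 635, 678 and 706 CPM (log2 fold change 0.96 ± 0.09, adjusted p = 1.87e-08). Without MPNST-CM replicate 1 the higher count for receptors became 2.

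A list of RT-qPCR markers of macrophage activation did not move as one program. Of 11 members tested, Il1b, Mrc1, Tnf, Vegfa and Hif1a were higher and Mmp9 and Clec10a lower. Il1b, an inflammatory cytokine, read 3.8, 5.21 and 5.7 CPM in control and 14.7, 12.8 and 11.3 CPM in MPNST-CM (log2 fold change 1.39 ± 0.18, adjusted p = 2.44e-06). Tnf read 26.9, 32.2 and 31.1 CPM and 57.3, 45.1 and 52.4 CPM (log2 fold change 0.78 ± 0.13, adjusted p = 7.41e-05), and Mrc1, the mannose receptor CD206, read 714, 748 and 737 CPM and 1169, 1346 and 1328 CPM (log2 fold change 0.81 ± 0.07, adjusted p = 6.12e-09). Markers of inflammatory and of alternative activation both rose, with the groups apart for each, as for 33.3% of all genes. The angiogenic factor Vegfa (16.7, 14.98 and 18.7 CPM against 21.8, 30.2 and 27.4 CPM, log2 fold change 0.65 ± 0.12, adjusted p = 0.000271) and the oxygen-regulated factor Hif1a (47.5, 53.6 and 45.2 CPM against 69.5, 78.8 and 71.5 CPM, log2 fold change 0.59 ± 0.09, adjusted p = 1.32e-05) rose less. The gelatinase Mmp9 fell from 5.397, 6.91 and 8.202 CPM to 1.74, 1.38 and 2.05 CPM (log2 fold change -1.98 ± 0.20, adjusted p = 3.34e-08), and the lectin Clec10a, MGL1, from 39.1, 51.1 and 45.8 CPM to 22.9, 25.7 and 27.1 CPM (log2 fold change -0.84 ± 0.13, adjusted p = 3.44e-05). Cd163 (6.32 to 5.12 CPM, log2 fold change -0.30 ± 0.22), Fcgr1 (216 to 237 CPM, log2 fold change 0.14 ± 0.08) and Arg1 (0.245, 0.261 and 0.57 CPM against 0.579, 1.04 and 0.647 CPM) were not called, and Nos2 read at most 0.782 CPM in any library. The summed level of the marker list was 1059 to 1148 CPM in control and 1594 to 1787 CPM in MPNST-CM. Of 24 IL-4 alternative activation markers tested, 6 were higher and 5 lower (median 0.02). Transglutaminase Tgm2 (63.6 to 138 CPM, log2 fold change 1.11 ± 0.10), the IL-4 receptor chain Il4ra (89.3 to 183 CPM, log2 fold change 1.03 ± 0.11) and the transferrin receptor Tfrc (48.4 to 74.6 CPM, log2 fold change 0.63 ± 0.09) rose, and the early growth response factor Egr2 fell (30.7 to 19.2 CPM, log2 fold change -0.68 ± 0.13). Of 19 inflammatory cytokine and NF-kB feedback genes, 4 were higher and 4 lower, with the signalling inhibitor Socs3 (5.7 to 14.6 CPM, log2 fold change 1.37 ± 0.23) and the IL-1 receptor antagonist Il1rn (38.8 to 78.2 CPM, log2 fold change 1.01 ± 0.10) higher and the adhesion molecule Icam1 lower (90.96 to 71.2 CPM, log2 fold change -0.35 ± 0.10). The lower count became 2 without MPNST-CM replicate 2 or control replicate 3.

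Genes of cholesterol synthesis and uptake were higher almost throughout. Of 23 members tested, 21 were higher in MPNST-CM and all 23 had a positive log2 fold change (median log2 fold change 1.11), beside 11.3% of all genes higher. Their summed level rose from 1016 to 1066 CPM in control to 2100 to 2165 CPM in MPNST-CM, and the 2 ranges did not overlap. Mvd, which makes isopentenyl diphosphate from mevalonate diphosphate, read 13.4, 9.64 and 14.4 CPM in control and 56.5, 44.6 and 47.4 CPM in MPNST-CM (log2 fold change 1.98 ± 0.14, adjusted p = 6.18e-11). The cyclase Lss read 8.46, 16.4 and 12.8 CPM and 37.3, 60.3 and 49.4 CPM (log2 fold change 1.97 ± 0.19, adjusted p = 2.52e-08). The farnesyl diphosphate synthase Fdps read 24.7, 26.4 and 23.2 CPM and 83.6, 90.01 and 92.9 CPM (log2 fold change 1.84 ± 0.11, adjusted p = 2.63e-12). Thus enzymes of the early, middle and late steps rose together. Hsd17b7 (10.96 to 37.3 CPM, log2 fold change 1.76 ± 0.16) and Msmo1 (143 to 281 CPM, log2 fold change 0.97 ± 0.08) act on the ring after the cyclase. Hmgcs1, the synthase before HMG-CoA reductase, was shown after its values were seen because its promoter was the only one holding the classical sterol regulatory element among the 17 of 25 listed genes that had a promoter to search. It read 109, 94.7 and 92.4 CPM in control and 228, 183 and 184 CPM in MPNST-CM (log2 fold change 1.01 ± 0.10, adjusted p = 2.08e-08).

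The Hmgcs1 promoter of RefSeq (GRCm38.p6, chr13:119690101-119690350, plus strand), the 250 bases before the start, follows with the sterol regulatory element in capitals. The motif searched was TCACNCCAC on both strands, and it lies 137 bases before the start. The motifs and genes printed were chosen after the values were seen. The sterol motif is found in 1.05% of all 32851 promoters of the table and in 1 of 20 promoters of the sterol list. It is also found in 1 of 17 of the fatty acid list, that of Acsl1, which was not called.
Hmgcs1: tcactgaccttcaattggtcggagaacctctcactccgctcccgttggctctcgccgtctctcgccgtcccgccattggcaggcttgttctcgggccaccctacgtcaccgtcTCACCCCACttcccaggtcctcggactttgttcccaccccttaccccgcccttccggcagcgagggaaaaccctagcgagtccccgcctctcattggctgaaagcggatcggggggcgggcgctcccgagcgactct

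Of 15 fatty acid synthesis members tested, 12 were higher (median 0.84), with a summed level of 742 to 833 CPM in control and 1514 to 1603 CPM in MPNST-CM. Stearoyl-CoA desaturases, which make monounsaturated fatty acids, led the list. Scd1 read 4.42, 6.78 and 4.33 CPM in control and 48.3, 43.1 and 42.05 CPM in MPNST-CM (log2 fold change 3.11 ± 0.16, adjusted p = 1.40e-13). Scd2 read 84.3, 88.7 and 91.1 CPM and 377, 408 and 411 CPM (log2 fold change 2.18 ± 0.09, adjusted p = 2.09e-15). Neither gene had overlapping groups, which the rule for the largest rises required of Scd1, and Scd2 had the smaller relative rise. Fasn, the fatty acid synthase (42.1, 36.5 and 40.6 CPM against 126, 120.4 and 114 CPM, log2 fold change 1.60 ± 0.11, adjusted p = 6.03e-11), and the elongase Elovl6 (12.9 to 36.3 CPM, log2 fold change 1.48 ± 0.18) rose as well. Genes of lipid efflux, uptake and storage did not share that direction, with 4 of 22 higher and 6 lower (median -0.25). Their summed level fell from 12908 to 13900 CPM in control to 8658 to 9026 CPM in MPNST-CM. Lpl, lipoprotein lipase, read 7743, 8657 and 8682 CPM in control and 4021, 4532 and 4415 CPM in MPNST-CM (log2 fold change -0.95 ± 0.08, adjusted p = 7.97e-10). Apoe, the apolipoprotein that accepts cellular cholesterol, read 928, 803 and 816 CPM and 484, 358 and 391 CPM (log2 fold change -1.05 ± 0.10, adjusted p = 3.17e-08), and Abca1, its cholesterol exporter, fell too (191, 176 and 186 CPM against 94.6, 121 and 119 CPM, log2 fold change -0.72 ± 0.13, adjusted p = 0.000129). The lysosomal lipase Lipa fell (1183 to 795 CPM, log2 fold change -0.57 ± 0.07), and the fatty acid-binding proteins Fabp5 (87.97 to 195 CPM, log2 fold change 1.15 ± 0.19) and Fabp4 (20.3 to 33.4 CPM, log2 fold change 0.72 ± 0.15) rose. Without control replicate 3 the higher count was 2.

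**Figure D3:**
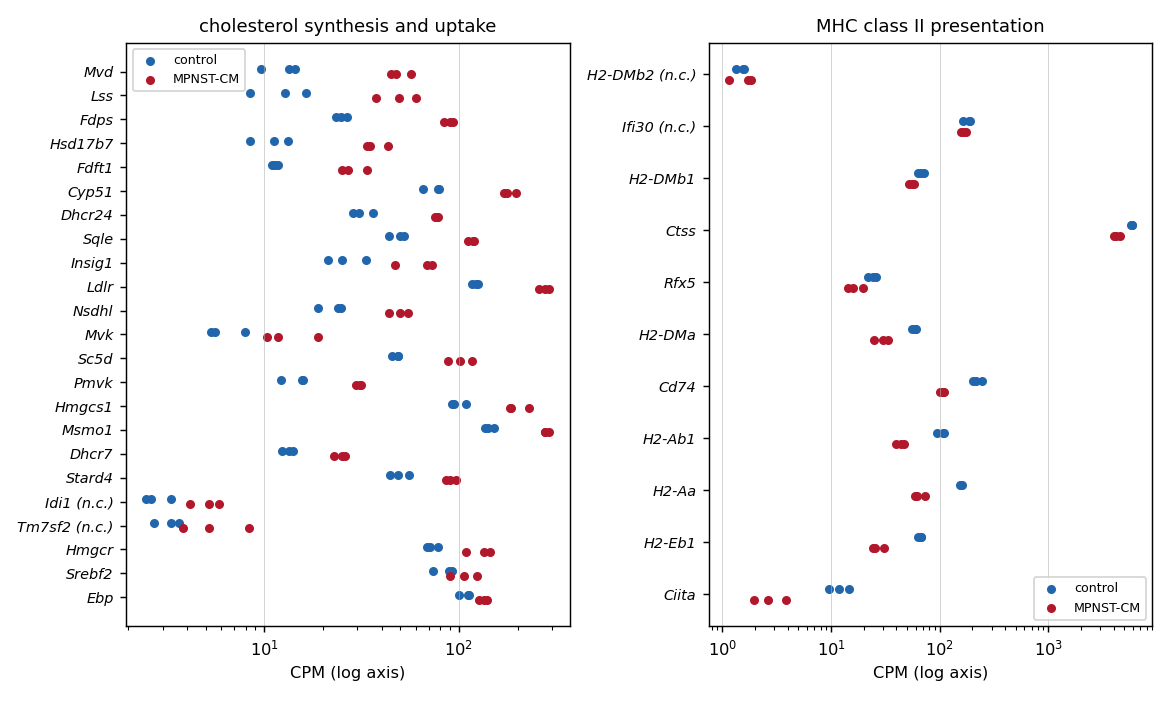
CPM (horizontal log axis) of every tested member of the cholesterol list (left) and the MHC class II list (right), with 3 control libraries in blue and 3 MPNST-CM libraries in red, and n.c. for members not called. Of the 23 sterol genes 21 were higher, and of the 11 class II genes 9 were lower, in MPNST-CM.

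Glycolytic enzymes and glucose and lactate transporters rose in the main, with 17 of 25 higher and 1 lower (median 0.48). The single lower call was lost without MPNST-CM replicate 1 or 2 or without control replicate 2 or 3. Pkm, the pyruvate kinase, read 582, 545 and 560.3 CPM in control and 1491, 1104 and 1215 CPM in MPNST-CM (log2 fold change 1.18 ± 0.09, adjusted p = 1.56e-10). Lactate dehydrogenase Ldha read 91.5, 94.9 and 87.9 CPM and 172, 165 and 173 CPM (log2 fold change 0.90 ± 0.10, adjusted p = 3.82e-07). The lactate exporters Slc16a3 (25.8, 31.5 and 28.02 CPM against 54.8, 59.4 and 59.7 CPM, log2 fold change 1.03 ± 0.10, adjusted p = 1.40e-08) and Slc16a1 (12.1 to 20.5 CPM, log2 fold change 0.76 ± 0.15) rose in the same libraries. Of 20 other HIF target genes, 8 were higher and 4 lower. The mTOR inhibitor Ddit4 (8.83, 9.51 and 9.11 CPM against 18.5, 22.8 and 19.5 CPM, log2 fold change 1.15 ± 0.16, adjusted p = 5.62e-06), the cytokine Mif (41.8 to 85.5 CPM, log2 fold change 1.03 ± 0.11), Hilpda, a lipid droplet protein (16.2 to 31.5 CPM, log2 fold change 0.96 ± 0.13), and Higd1a (25.1 to 44.1 CPM, log2 fold change 0.81 ± 0.14) rose. The mitophagy receptor Bnip3l (59.1 to 39.3 CPM, log2 fold change -0.59 ± 0.10) and Ndrg1 (72.6 to 54.5 CPM, log2 fold change -0.41 ± 0.10), which hypoxia also induces, fell, and Plin2 was not called (299.5, 292 and 310.2 CPM against 315, 308 and 300.3 CPM). The lower count was 2 without MPNST-CM replicate 1. The short core ACGTG of the hypoxia element is common, in 16.6% of all promoters. It occurred in 15 of 37 promoters of the glycolytic list and 13 of 24 of the other list. Among genes holding it, Aldoa, Ldha, Pgam1, Pgk1, Pkm, Slc16a1, Slc16a3, Slc2a1, Ddit4, Egln3, Ero1a, Hilpda, P4ha2 and Vegfa were higher. Hk2, Hk3, Pfkfb3, Pfkm, Ankrd37, Bnip3, Car9, Egln1 and P4ha1 hold it too and were not called, and Mxi1 was lower.

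Genes of the integrated stress response, through which ATF4 answers amino acid shortage and endoplasmic reticulum stress, were higher in 12 of 24 cases and lower in 1 (median 0.48). Atf4 itself read 145, 145 and 146 CPM in control and 281, 250.4 and 255 CPM in MPNST-CM (log2 fold change 0.85 ± 0.08, adjusted p = 2.23e-08). Gdf15, a secreted stress cytokine, read 23.1, 28.7 and 25.1 CPM and 83.02, 103 and 102 CPM (log2 fold change 1.91 ± 0.14, adjusted p = 1.60e-10). The asparagine synthetase Asns read 7.85, 11.1 and 11.1 CPM and 23.97, 17.5 and 18.2 CPM (log2 fold change 0.99 ± 0.22, adjusted p = 0.00195), with an adjusted p over 0.05 when only replicates 2 and 3 were used, and Atf5 read 12.6, 12.5 and 14.1 CPM and 25.8, 25.6 and 26.2 CPM (log2 fold change 0.98 ± 0.13, adjusted p = 2.77e-06). Atf4 and Gdf15 were tight within groups, whereas Asns was more scattered. Atf3, a stress factor, fell from 138, 137 and 129.8 CPM to 99.1, 94.7 and 92.6 CPM (log2 fold change -0.50 ± 0.08, adjusted p = 2.82e-05). Chac1, which degrades glutathione, was named after its values were seen. It had 2, 1 and 0 counts in the control libraries and 13, 16 and 10 in MPNST-CM.

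The Chac1 promoter (RefSeq, GRCm38.p6, chr2:119350992-119351241, plus strand, 250 bases before the start) is shown because it holds a CARE, the site of C/EBP-ATF factors. The letters TGATGNAA were searched on both strands, and the match, 193 bases before the start, is on the opposite strand, so the capitals show its reverse complement. They occur in 3.45% of all promoters and in 7 of 29 of this list. Among the genes of those 7, Asns, Chac1 and Slc7a11 were higher and Atf3 was lower. Nupr1 and Vldlr were not called, and Fgf21 was not tested.
Chac1: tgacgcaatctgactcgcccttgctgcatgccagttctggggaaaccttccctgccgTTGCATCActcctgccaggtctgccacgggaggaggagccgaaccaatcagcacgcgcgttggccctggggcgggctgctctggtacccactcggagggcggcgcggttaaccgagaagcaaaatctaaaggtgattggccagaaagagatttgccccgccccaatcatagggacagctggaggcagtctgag

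Many chaperones rose. Of 20 endoplasmic reticulum chaperones, 11 were higher (median 0.39), and 7 were when MPNST-CM replicate 2 was left out. Hspa5, the chaperone BiP, read 1108, 1171 and 1172 CPM in control and 1687, 1505 and 1494 CPM in MPNST-CM (log2 fold change 0.44 ± 0.07, adjusted p = 2.96e-05). Hyou1 (12.2 to 22.7 CPM, log2 fold change 0.90 ± 0.13), the protein disulfide isomerases P4hb (273 to 426 CPM, log2 fold change 0.64 ± 0.07) and Pdia6 (293 to 452 CPM, log2 fold change 0.63 ± 0.08), and the secreted factor Manf (83.6 to 129.7 CPM, log2 fold change 0.63 ± 0.12) rose by less than 1 on the log2 scale. Of 16 cytosolic and mitochondrial chaperones, 11 were higher, among them Hspd1 (48.5 to 79.5 CPM, log2 fold change 0.71 ± 0.11), Hspa9 (128 to 198 CPM, log2 fold change 0.62 ± 0.08) and the protease Clpp (16.2 to 25.9 CPM, log2 fold change 0.68 ± 0.12). NRF2 antioxidant and thiol genes were split, with 9 of 24 higher and 3 lower, and 1 to 4 were lower when 1 library was left out. The cystine transporter Slc7a11 (4.54, 5.86 and 3.99 CPM against 9.96, 10.6 and 10.03 CPM, log2 fold change 1.09 ± 0.16, adjusted p = 9.23e-06), heme oxygenase Hmox1 (71.7 to 126 CPM, log2 fold change 0.82 ± 0.15) and peroxiredoxin Prdx6 (81.7 to 122 CPM, log2 fold change 0.58 ± 0.08) rose, and the glutathione transferase Mgst1 fell from 50.3, 63.3 and 62.5 CPM to 14.2, 26.3 and 24.7 CPM (log2 fold change -1.43 ± 0.20, adjusted p = 1.83e-05).

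Several polyamine and amino acid genes rose. Of 20 glutamine and arginine genes, 9 were higher, or 5 with replicates 2 and 3 alone, and 1 lower (median 0.35). Odc1, the first enzyme of polyamine synthesis, read 1.72, 2.74 and 3.87 CPM in control and 11.1, 9.91 and 9.38 CPM in MPNST-CM (log2 fold change 1.85 ± 0.26, adjusted p = 6.22e-06). The spermidine synthase Srm read 11.04, 9.51 and 12.6 CPM and 35.3, 31.6 and 38.1 CPM (log2 fold change 1.66 ± 0.14, adjusted p = 3.42e-09). The arginine importer Slc7a1 (19.2 to 36.5 CPM, log2 fold change 0.93 ± 0.13) and the glutamine importer Slc38a2 (226 to 366 CPM, log2 fold change 0.70 ± 0.07) rose, whereas glutamine synthetase Glul fell (246 to 169 CPM, log2 fold change -0.55 ± 0.08) and Glud1 was not called. Iron genes were mixed, with 5 of 19 higher and 5 lower (52.6% called, beside 21.2% of all genes). The ferritin heavy chain Fth1 rose (10000.1 to 13532 CPM, log2 fold change 0.44 ± 0.08). The iron exporter Slc40a1 fell from 96.7, 117 and 118 CPM to 45.9, 58.3 and 51.4 CPM (log2 fold change -1.09 ± 0.11, adjusted p = 4.19e-08) and the iron regulator Hfe fell (77.03 to 56.4 CPM, log2 fold change -0.45 ± 0.08).

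Most DNA replication genes rose, and few mitosis genes were called. Of 30 replication genes, 21 were higher and all 30 had a positive log2 fold change (median 0.46). Cdc6, which loads the helicase, read 25.3, 22.02 and 24.2 CPM in control and 49.4, 39.6 and 44.5 CPM in MPNST-CM (log2 fold change 0.90 ± 0.13, adjusted p = 7.12e-06). Mcm2 read 41.2, 38.96 and 39.3 CPM and 64.7, 68.1 and 74.7 CPM (log2 fold change 0.80 ± 0.10, adjusted p = 6.25e-07), and Ccne1 (22.6 to 38.7 CPM, log2 fold change 0.78 ± 0.12) and E2f1 (43.9 to 73.7 CPM, log2 fold change 0.75 ± 0.12), regulators of entry into S phase, rose too. Of 29 mitosis genes, 3 were higher and 1 lower (13.8% called, beside 21.2% of all genes, median 0.17), and 5 were higher with a replicate block, 5 without MPNST-CM replicate 1 and 1 without control replicate 2. The lower call held in 1 of 6 fits that left out a library. Pbk, a mitotic kinase, was one of the higher genes (48.9 to 67.2 CPM, log2 fold change 0.46 ± 0.11), and Top2a, at 533, 325 and 332 CPM against 652, 396 and 396 CPM, was highest in replicate 1 of both groups and was not called. Of 17 p53 target genes 5 were lower and 1 higher (35.3% called, beside 21.2% of all genes), and 3 were lower without MPNST-CM replicate 1. Trp53inp1 (75.3 to 34.1 CPM, log2 fold change -1.14 ± 0.11), the apoptotic gene Bbc3 (68.3 to 42.9 CPM, log2 fold change -0.67 ± 0.11) and Plk2 (36.5 to 26.1 CPM, log2 fold change -0.48 ± 0.12) fell, and Cdkn1a was not called (508, 299.7 and 324 CPM against 647, 367 and 396 CPM).

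**Figure D4:**
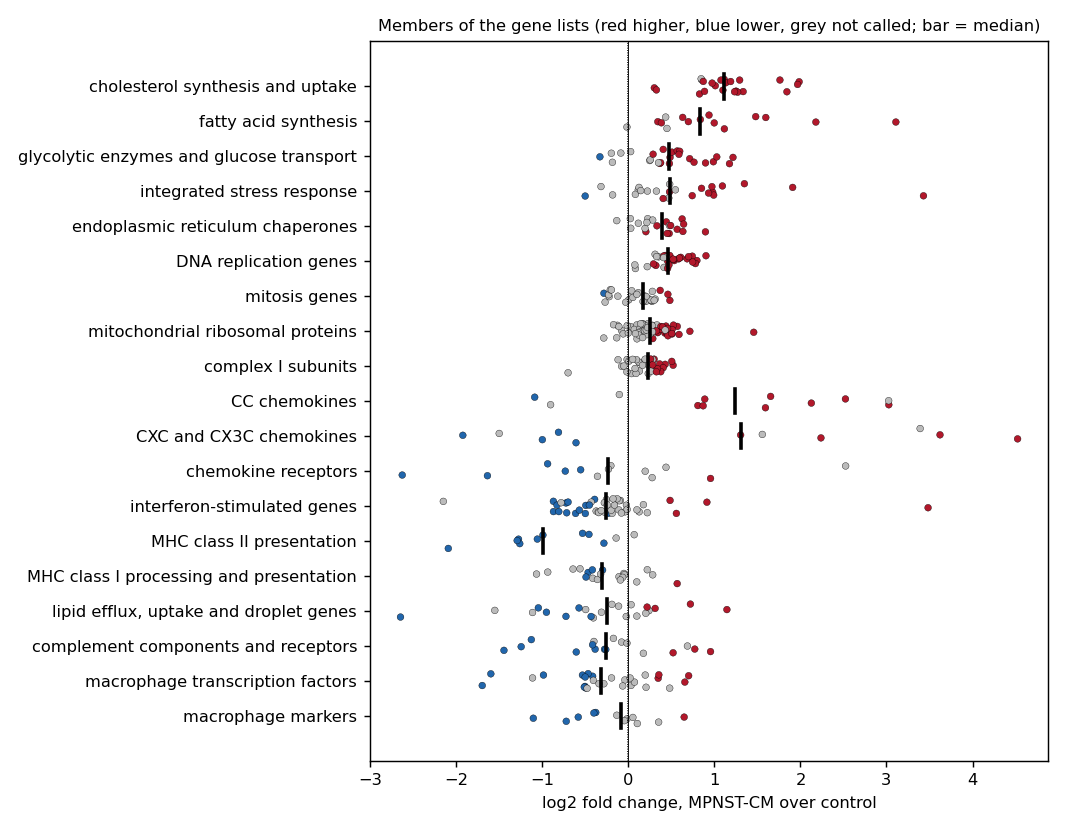
Log2 fold change of MPNST-CM over control (horizontal axis) for every tested member of 19 gene lists, with called rises in red, called falls in blue, other genes in grey and a bar at the list's median. Sterol genes sit to the right of 0, while 10 of 11 MHC class II genes sit to its left.

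Most genes of MHC class II presentation were lower. Of 11 genes tested, 9 were lower (median -0.99), beside 9.96% of all genes lower. Ciita, the master regulator of the class II genes, read 14.5, 11.9 and 9.57 CPM in control and 3.82, 2.65 and 1.94 CPM in MPNST-CM (log2 fold change -2.09 ± 0.22, adjusted p = 5.47e-08). The class II chain gene H2-Aa read 155, 160.3 and 158 CPM and 73.9, 59.5 and 62.1 CPM (log2 fold change -1.28 ± 0.08, adjusted p = 2.00e-11). H2-Eb1 read 66.6, 66.7 and 62.5 CPM and 30.5, 24.1 and 25.4 CPM (log2 fold change -1.29 ± 0.10, adjusted p = 4.81e-10). All 3 were lower in every MPNST-CM library than in any control library, and 33.3% of all genes had groups that did not overlap. H2-Ab1 fell by a similar step (104 to 43.4 CPM, log2 fold change -1.26 ± 0.08), and the protease Ctss, which cuts the invariant chain, was also lower (5830.5 to 4246 CPM, log2 fold change -0.46 ± 0.06). Of 20 class I genes, 4 were lower and 1 higher (25.0% called, beside 21.2% of all genes), and 2 were lower without control replicate 3. The class I heavy chain H2-D1 (2096 to 1516 CPM, log2 fold change -0.47 ± 0.10) and the peptide transporter Tap1 (126 to 89.3 CPM, log2 fold change -0.49 ± 0.08) fell, and the chaperone Calr, which also serves protein folding, rose (692 to 1025 CPM, log2 fold change 0.57 ± 0.13).

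Promoters of 2 class II genes (RefSeq, GRCm38.p6, 250 bases before the start) are given because both hold the Y box, bound by NF-Y in the class II enhanceosome, in capitals. H2-Aa lies at chr17:34287824-34288073 on the minus strand, with the Y box 51 bases before the start, and H2-Eb1 at chr17:34305617-34305866 on the plus strand, with the Y box 62 bases before it. The letters CTGATTGG, searched on both strands, occur in 3.83% of all promoters and in 3 of 10 of the list.
H2-Aa: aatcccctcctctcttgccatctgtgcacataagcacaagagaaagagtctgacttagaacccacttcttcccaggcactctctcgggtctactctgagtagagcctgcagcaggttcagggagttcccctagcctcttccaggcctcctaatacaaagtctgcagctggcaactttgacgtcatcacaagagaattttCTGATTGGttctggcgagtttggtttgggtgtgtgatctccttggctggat
H2-Eb1: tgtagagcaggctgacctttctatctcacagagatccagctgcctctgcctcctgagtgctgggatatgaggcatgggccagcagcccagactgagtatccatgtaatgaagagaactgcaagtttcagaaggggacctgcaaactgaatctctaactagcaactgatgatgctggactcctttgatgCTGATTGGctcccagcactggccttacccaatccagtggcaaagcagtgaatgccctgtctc

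Interferon-stimulated genes leaned lower. Of 45 tested, 14 were lower and 4 higher (median -0.25), and 37 had a negative log2 fold change. Ifit2, an antiviral RNA-binding protein, read 103, 116 and 112 CPM in control and 55.9, 64.4 and 60.4 CPM in MPNST-CM (log2 fold change -0.87 ± 0.10, adjusted p = 6.64e-07). The guanylate-binding proteins Gbp2 (44.6, 38.8 and 37.9 CPM against 21.8, 24.8 and 21.8 CPM, log2 fold change -0.83 ± 0.10, adjusted p = 6.64e-07) and Gbp3 (29.4 to 16.8 CPM, log2 fold change -0.81 ± 0.17) and Ifi213 (22.4 to 12.2 CPM, log2 fold change -0.87 ± 0.12) also fell. Of the 4 higher genes 3 were of the Ifitm family, which restricts viral entry. Ifitm3 read 2151, 1874 and 1979 CPM in control and 4631, 3254 and 3422 CPM in MPNST-CM (log2 fold change 0.91 ± 0.11, adjusted p = 5.04e-07). Ifitm2 read 117, 141 and 142 CPM and 181, 189 and 191 CPM (log2 fold change 0.49 ± 0.08, adjusted p = 7.09e-05). Ifitm1, described above, rose by 3.48 on the log2 scale.

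Receptors of phagocytes were divided. Of 21 scavenger and Fc gamma receptors, 5 were higher, or 8 with a replicate block, and 6 lower (52.4% called, beside 21.2% of all genes). The C-type lectins Clec4e (70.3, 69.8 and 68.5 CPM against 148, 183 and 173 CPM, log2 fold change 1.27 ± 0.11, adjusted p = 1.86e-09), Clec4n (102 to 222 CPM, log2 fold change 1.11 ± 0.09) and Clec4d (551 to 1098 CPM, log2 fold change 1.00 ± 0.10) rose, as did the scavenger receptor Msr1 (314, 348 and 330.4 CPM against 635, 651 and 611 CPM, log2 fold change 0.93 ± 0.07, adjusted p = 6.86e-11). The apoptotic cell receptors Axl (112 to 62.6 CPM, log2 fold change -0.84 ± 0.09) and Mertk (128 to 77.8 CPM, log2 fold change -0.72 ± 0.08) and the neonatal Fc receptor Fcgrt (48.5 to 28.9 CPM, log2 fold change -0.75 ± 0.12) fell. The groups did not overlap for any of these receptors, as for 33.3% of all genes. Complement genes were lower in 8 of 17 cases and higher in 3 (64.7% called, beside 21.2% of all genes). The integrin Itgax (65.7, 78.7 and 69.8 CPM against 27.8, 26.4 and 24.5 CPM, log2 fold change -1.45 ± 0.09, adjusted p = 3.79e-12), C3 (56.4 to 37.1 CPM, log2 fold change -0.61 ± 0.09) and C3ar1 (1438 to 1101 CPM, log2 fold change -0.39 ± 0.07) were lower and properdin (Cfp, 565 to 964 CPM, log2 fold change 0.77 ± 0.08) higher. Of 15 integrins 6 were lower and 2 higher (53.3% called, beside 21.2% of all genes), and 1 was higher without control replicate 1. Itgal (55.8 to 27.7 CPM, log2 fold change -1.01 ± 0.11), Itga6 (415 to 238 CPM, log2 fold change -0.80 ± 0.08) and Itga4 (169 to 104 CPM, log2 fold change -0.69 ± 0.10) fell, and Itgam was not called. Of 19 toll-like receptors and adaptors, 3 were lower and 1 higher (21.1% called, beside 21.2% of all genes), or 2 higher with a replicate block or without MPNST-CM replicate 1, a call lost without control replicate 1. Tlr8 (126 to 74.9 CPM, log2 fold change -0.75 ± 0.12), Ticam2 (26.5 to 18.3 CPM, log2 fold change -0.54 ± 0.11), whose gene overlaps Tmed7 on the same strand, and Unc93b1 (456 to 340.2 CPM, log2 fold change -0.42 ± 0.08) fell. Of 19 co-stimulatory and checkpoint molecules 7 were lower, or 4 without control replicate 3, and 1 higher, or 2 with the block, a call lost without control replicate 1 or MPNST-CM replicate 2 or 3. The receptors Il10ra (65.6 to 35.8 CPM, log2 fold change -0.87 ± 0.10) and Tgfbr1 (99.1 to 54.7 CPM, log2 fold change -0.86 ± 0.12) and the checkpoint Vsir (476 to 328 CPM, log2 fold change -0.54 ± 0.08) fell. Among the Ms4a and Tmem176 genes 5 of 11 were lower and 1 higher, where Ms4a4c fell (59.98 to 25.9 CPM, log2 fold change -1.21 ± 0.16) and Ms4a6d rose (454 to 704 CPM, log2 fold change 0.63 ± 0.10).

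Matrix and angiogenic genes were split. Of 19 proteases and inhibitors of the matrix, 7 were higher and 6 lower (68.4% called, beside 21.2% of all genes). Collagenases Mmp13 (19.6, 24.2 and 19.3 CPM against 43.2, 46.1 and 46.3 CPM, log2 fold change 1.10 ± 0.11, adjusted p = 1.85e-08) and Mmp8 (147 to 299.5 CPM, log2 fold change 1.03 ± 0.10) rose, with Mmp27 (10.5 to 22.97 CPM, log2 fold change 1.13 ± 0.14) and Adam8 (462 to 648 CPM, log2 fold change 0.49 ± 0.10). The elastase Mmp12 fell from 800.2, 1045 and 998 CPM to 505, 655 and 608 CPM (log2 fold change -0.68 ± 0.11, adjusted p = 3.43e-05), and so did Adam17 (304 to 215 CPM, log2 fold change -0.50 ± 0.09). Of 26 angiogenic genes 8 were higher and 3 lower (42.3% called, beside 21.2% of all genes), or 5 lower with a replicate block. Besides Thbs1 and Vegfa, Vegfb (34.2 to 57.5 CPM, log2 fold change 0.75 ± 0.10) and Tgfbi (381 to 570.0 CPM, log2 fold change 0.58 ± 0.11) rose, and Hgf (38.03 to 22.9 CPM, log2 fold change -0.73 ± 0.12) and Igf1 (937, 1056 and 1026 CPM against 621, 677 and 649.9 CPM, log2 fold change -0.63 ± 0.07, adjusted p = 5.05e-07) fell. Pdgfb fell as well, from 44.8, 50.8 and 48.6 CPM to 8.22, 17.9 and 21.02 CPM (log2 fold change -1.61 ± 0.38, adjusted p = 0.00565), a call lost when only replicates 2 and 3 were used. Galectins and S100 proteins were higher in 7 of 14 cases and lower in 1, a call lost in 4 of 6 fits that left out a library. Lgals1 (1355 to 2176 CPM, log2 fold change 0.68 ± 0.07), Lgals3 (4178, 4131 and 4106 CPM against 6964, 5663 and 6074 CPM, log2 fold change 0.59 ± 0.07, adjusted p = 7.18e-07), S100a4 (3039.8 to 4140.4 CPM, log2 fold change 0.45 ± 0.08) and S100a11 (317 to 459.9 CPM, log2 fold change 0.54 ± 0.12) rose.

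Lysosomal genes did not move together, with 6 of 35 higher, or 3 with replicates 2 and 3 alone, and 10 lower (45.7% called, beside 21.2% of all genes). Ctsl, a cysteine protease, rose from 1085, 1371 and 1379 CPM to 2353, 3718 and 3421 CPM (log2 fold change 1.31 ± 0.14, adjusted p = 2.48e-07), with MPNST-CM replicate 1 the lowest of its group but above all controls. Ctsh fell (309 to 167 CPM, log2 fold change -0.88 ± 0.09), as did Tfeb (24.8 to 15.5 CPM, log2 fold change -0.68 ± 0.12) and Mitf (222 to 156 CPM, log2 fold change -0.51 ± 0.11), transcription factors of lysosomal genes. The lipid-associated macrophage genes were lower in 7 of 18 cases and higher in 2, or 4 with a replicate block or without MPNST-CM replicate 1, and Gpnmb, at 6880.4, 8327 and 8285 CPM against 8198, 9054 and 9214 CPM, was not called. Among 8 stefins and related inhibitors 4 were higher and 1 lower, with Cst7 (9.44, 9.38 and 7.75 CPM against 21.8, 29.6 and 30.1 CPM, log2 fold change 1.62 ± 0.16, adjusted p = 4.05e-08) higher and Cst3 lower (1782 to 1412 CPM, log2 fold change -0.34 ± 0.08). Csta2 lies in a family of close copies, so reads may be split between copies. Eicosanoid enzymes were mixed (3 of 18 higher and 4 lower, 38.9% called, beside 21.2% of all genes). Pla2g4a, which releases arachidonic acid, rose (23.5 to 38.9 CPM, log2 fold change 0.73 ± 0.13), and the thromboxane synthase Tbxas1 (197 to 127 CPM, log2 fold change -0.63 ± 0.07) and prostaglandin receptor Ptger4 (36.7, 35.7 and 33.04 CPM against 16.2, 13.5 and 13.3 CPM, log2 fold change -1.29 ± 0.14, adjusted p = 1.08e-07) fell. Of 16 growth factor and CSF receptors 7 were lower, or 4 without control replicate 2, and 2 higher (56.2% called, beside 21.2% of all genes). Tnfrsf1b, a TNF receptor, fell from 383, 408 and 422 CPM to 166, 209.6 and 209.6 CPM (log2 fold change -1.05 ± 0.09, adjusted p = 2.18e-09), and the receptors Csf3r (10.8 to 3.39 CPM, log2 fold change -1.66 ± 0.24) and Csf1r (2245 to 1727 CPM, log2 fold change -0.38 ± 0.08) fell as well.

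Transcription factors of macrophages were lower in 10 of 28 cases and higher in 4 (median -0.31). The inhibitors of bHLH factors moved apart, with Id2 at 284, 263 and 257 CPM in control and 455, 411 and 402 CPM in MPNST-CM (log2 fold change 0.66 ± 0.08, adjusted p = 4.92e-07) and Id3 at 53.2, 57.7 and 59.01 CPM and 20.8, 17.4 and 17.9 CPM (log2 fold change -1.60 ± 0.15, adjusted p = 1.83e-08). Cebpa, a myeloid factor, fell (35.2 to 17.8 CPM, log2 fold change -0.99 ± 0.12), as did the heme-responsive repressor Bach1 (78.2 to 54.04 CPM, log2 fold change -0.53 ± 0.09), while Maf was not called. Of 27 immediate early and MAPK feedback genes 7 were higher and 2 lower (33.3% called, beside 21.2% of all genes, and 9.96% of all genes lower). Ier3 read 29.8, 30.9 and 32.7 CPM in control and 130.3, 101 and 98.9 CPM in MPNST-CM (log2 fold change 1.82 ± 0.10, adjusted p = 2.32e-13), and Etv5 (25.97 to 44.99 CPM, log2 fold change 0.79 ± 0.13), Spry2 (15.3 to 25.3 CPM, log2 fold change 0.72 ± 0.14) and Fosl2 (37.1 to 59.2 CPM, log2 fold change 0.67 ± 0.10) rose as well.

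Some nuclear genes of the mitochondrion rose by small steps. Of 72 mitochondrial ribosomal proteins 27 were higher (median 0.25), or 17 without control replicate 1. Mrpl12 (48.9 to 80.3 CPM, log2 fold change 0.72 ± 0.10), Mrpl41 (26.4 to 39.7 CPM, log2 fold change 0.59 ± 0.12) and Mrpl17 (44.4 to 65.8 CPM, log2 fold change 0.57 ± 0.09) rose. Mrps6 (40.8, 45.3 and 44.8 CPM against 144, 110.4 and 105 CPM, log2 fold change 1.46 ± 0.14, adjusted p = 1.65e-08) overlaps Slc5a3 on the same strand, so their reads may be shared. Of 36 complex I subunits 14 were higher (median 0.22), or 7 without control replicate 1, 8 without control replicate 2 and 8 without MPNST-CM replicate 1. Ndufa12 (76.2 to 109 CPM, log2 fold change 0.52 ± 0.09) and Ndufa9 (46.5 to 62.6 CPM, log2 fold change 0.43 ± 0.10) rose. Of 38 members of the list for complexes III to V 12 were higher and 1 lower. The higher genes included the electron carrier Cycs (24.3 to 40.95 CPM, log2 fold change 0.75 ± 0.14) and the subunits Cyc1 (34.1 to 50.9 CPM, log2 fold change 0.58 ± 0.11) and Cox7a2 (228 to 306 CPM, log2 fold change 0.43 ± 0.09). With replicates 2 and 3 alone the higher counts were 15, 5 and 5 for these 3 lists. Of 28 TCA cycle and succinate dehydrogenase genes, 4 were higher (14.3% called, beside 21.2% of all genes), or 7 higher and 1 lower with a replicate block, among them Mdh2 (173, 186 and 179 CPM against 252, 252 and 264 CPM, log2 fold change 0.51 ± 0.07, adjusted p = 8.36e-06), Ogdh (75.2 to 99.9 CPM, log2 fold change 0.41 ± 0.08) and Idh1 (274 to 348 CPM, log2 fold change 0.34 ± 0.07). The 13 mitochondrially encoded transcripts showed 1 lower call, or 2 with the block, lost without any 1 library other than MPNST-CM replicate 1, at 2.84% to 3.42% of counts across the 6 libraries. Of 78 cytosolic ribosomal proteins, 7 were lower (8.97%, beside 9.96% of all genes), or 14 with the block, 1 without control replicate 2 or 3 and 3 without MPNST-CM replicate 2. Rplp1 was not called.

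The response of WT M0 macrophages was then set beside that of WT M2 and TRAP1 KO M0 macrophages, which share no library with it. The log2 fold change differed from that of WT M2 for 1653 genes (12.1% of those tested), of which 941 (6.91%) had the higher and 712 (5.23%) the lower value in M0. Against TRAP1 KO M0 it differed for 2683 genes (19.7%), of which 1571 (11.5%) had the higher and 1112 (8.17%) the lower value in WT. Of the 20 genes with the largest changes, 11 differed from WT M2 and 14 from TRAP1 KO M0. In the fit of all 27 libraries all 11 and 13 of the 14, all but that of Slco4a1, lost their call, and the difference of Scd1 from WT M2 turned from 0.95 to -0.54. The sterol list had a median of 0.76 in WT M2 and -0.39 in TRAP1 KO M0, and 6 of its 23 genes differed from WT M2 and 21 from TRAP1 KO M0. Scd1 rose by 3.11 on the log2 scale in WT M0, by 2.16 ± 0.15 in WT M2 and read 0.12 ± 0.13 in TRAP1 KO M0 (difference of WT and KO 2.99 ± 0.21, adjusted p = 2.54e-11). Slco4a1 read 2.97 ± 0.12 in WT M2 and -0.39 ± 0.12 in TRAP1 KO M0 (difference of WT and KO 2.99 ± 0.17, adjusted p = 7.30e-13). Ppbp rose less in WT M0 than in TRAP1 KO M0, where it was 8.54 ± 0.27 (difference -4.92 ± 0.37, adjusted p = 2.54e-09), and so did Thbs1 (difference -3.72 ± 0.21, adjusted p = 1.82e-12). Cx3cr1 fell more in M0 than in WT M2, where it was -0.65 ± 0.17 (difference -1.98 ± 0.20, adjusted p = 1.95e-07). Ccl7 read 2.85 ± 0.18 in WT M2 and 2.50 ± 0.18 in TRAP1 KO M0, and neither difference passed the test (0.17 ± 0.25, adjusted p = 0.751 and 0.53 ± 0.25, adjusted p = 0.155).

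**Figure D5:**
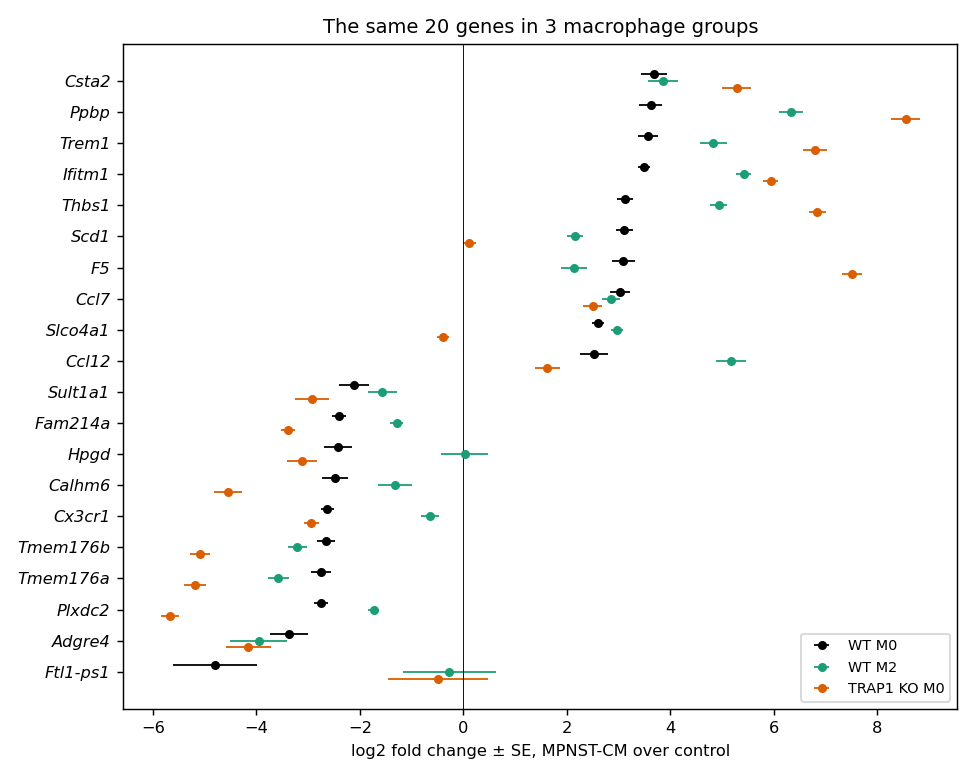
Log2 fold change ± SE of MPNST-CM over control (horizontal axis) for the same 20 genes in WT M0 (black), WT M2 (green) and TRAP1 KO M0 (orange) macrophages. Scd1 and Slco4a1 lie near 0 in TRAP1 KO M0, and Cx3cr1 and Hpgd lie nearer to 0 in WT M2.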

How the data were processed

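Polyadenylated RNA of 27 macrophage libraries was sequenced from the 3′ end. According to the study's methods, the authors trimmed the reads (Trimmomatic), aligned them using HISAT2, dropped those of low mapping quality (SAMtools) and counted the rest per gene with featureCounts, and they deposited raw counts, not normalized. The methods name mm10 and the submitters' notes mm39, and the annotation and strand setting are not given in the sources used here. Of 32 columns, 27 matched a library and 5 were not used.

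The 6 libraries compared here belong to batch 1 as labelled. edgeR 4.0.16 (limma 3.58.1, R 4.3.3) was fitted to the 24 batch 1 libraries in 8 groups, with TMM factors, its filter on low counts, a robust quasi-likelihood test with 16 residual degrees of freedom, and Benjamini-Hochberg adjustment over 13614 genes at 0.05. DESeq2 1.42.0 was an alternative. On simulated counts for this comparison, with 13203 genes tested, 68% of genes changed by a fold of 2 and 88% of those changed by a fold of 4 were recovered. The labels do not say whether replicates came from separate animals or cultures, so p-values measure the spread between these libraries, which may be technical. Counting error is the only error that the floor of 3 counts covers.

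Same-numbered control and MPNST-CM libraries deviated together (r = 0.650, 0.418 and 0.348 over 8090 genes), so the numbers from the titles were also used as a block. Replicates 2 and 3 correlated as much across numbers (r = 0.389 for control 2 with MPNST-CM 3, r = 0.465 for control 3 with MPNST-CM 2). Pairing by number therefore cannot be told apart from replicate 1 standing apart in both groups.

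The libraries, the 56 gene lists and the alternatives were chosen with earlier results of these data known. Genes were named by rule: the 10 largest rises and falls among called genes at 10 CPM or more whose groups did not overlap, the 5 smallest p per direction, in each list up to 4 called members per direction at 10 CPM or more and the member at the highest level, all CC chemokines and RT-qPCR markers, and Trap1. From these, members that kept their call when single libraries were left out were preferred. Promoters came from RefSeq (GRCm38.p6), and of the genes of each list searched, 9 to 24 had one. Of the list members, 15 were matched by an older symbol. Overlapping genes were read from GENCODE vM21, for names only: Cx3cr1 (Gorasp1, Csrnp1), Manf (Rbm15b) and Ctss (Hmgb1-ps5) overlap the genes in brackets on the same strand, so their reads may be shared. Results for 2 members of the lists are not reported here.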

Additional observations from a re-analysis of the deposited data

Results flagged for a closer look

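The responses to MPNST-CM differed between WT M0 and WT M2 macrophages for 1653 genes and between WT M0 and TRAP1 KO M0 macrophages for 2683 genes, by the interaction test of edgeR. All values below are log2 fold changes in WT M0 minus those in the other group, so a negative value means a smaller rise or a larger fall in WT M0.

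Against WT M2, Cx3cr1, the fractalkine receptor (-1.98), Plxdc2 (-1.02) and Fam214a (-1.11) had the lower log2 fold change in M0, as did Hpgd (-2.45), whose log2 fold change in WT M2 was 0.03 ± 0.45. The rises of Ppbp (-2.71), Ccl12 (-2.66), Ifitm1 (-1.94), Thbs1 (-1.81) and Trem1 (-1.26) were smaller in M0, and that of Scd1 (0.95) was larger. Ftl1-ps1 differed by -4.53. With all 27 libraries all 11 of these differences lost their call, and that of Scd1 turned to -0.54. With a replicate block the differences of Trem1 (adjusted p = 0.168) and Ftl1-ps1 (adjusted p = 0.105) no longer passed. The titles number the WT M2 control libraries differently from the other groups, and the block gave the highest of those numbers no weight, so both values are uncertain. Without control replicate 1 the difference of Trem1 had an adjusted p of 0.0879, and it also missed the threshold in 4 of the other 5 fits that left out a WT M0 library and with DESeq2 (0.0725).

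Against TRAP1 KO M0, the rises of Ppbp (-4.92), F5 (-4.42), Thbs1 (-3.72), Trem1 (-3.22), Ifitm1 (-2.46) and Csta2 (-1.59) were smaller in WT. Scd1 (2.99) and Slco4a1 (2.99) rose more in WT. The falls of Plxdc2 (2.91), Tmem176a (2.44), Tmem176b (2.43), Calhm6 (2.06) and Fam214a (0.99) were smaller in WT. With all 27 libraries 13 of these 14 differences, all but that of Slco4a1, lost their call. Ftl1-ps1 differed by -4.31, with an adjusted p of 0.0646 under the block. Without control replicate 2 the difference of Csta2 had an adjusted p of 0.0932, and without MPNST-CM replicate 1 that of Ftl1-ps1 had 0.052.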

How the results depend on the processing

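The count of called genes was 2889, and stayed within 1.5 times of it with RLE size factors (2917), library totals only (2874), DESeq2 (2881), no filter on low counts (2710), 25 libraries including the batch 2 control library (2803) and a replicate block (3371), and, in alternatives chosen after seeing the data, with replicates 2 and 3 alone (2075) and with the 6 libraries under a replicate block (3877). The 6 compared libraries alone gave 1898 calls, 841 of them lower. All 27 libraries gave 958 calls (576 higher, 382 lower), 155 of the 447 list members, and 192 and 653 response differences from WT M2 and TRAP1 KO M0, while the 25 libraries gave 2803. The 2 further libraries of batch 2 therefore go with the loss. They are TRAP1 KO M2 libraries outside the main comparison, and no fit held a term for batch. A log2 fold change of at least 1 left 523 calls (211 higher, 312 lower) and 117 list members. Leaving out single libraries gave 2199 to 2497 calls. The block took the call from no named gene of the main comparison, and from the response differences of Ftl1-ps1 and Trem1. It added calls for Lig1 (adjusted p = 0.0119), Spp1 (0.0363) and Ms4a6c (0.0116), and for the difference of Ccl12 from TRAP1 KO M0 (0.0278).

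Directions reversed in values that were not called, except for the response difference of Scd1 from WT M2 with all 27 libraries (-0.54). With all 27 libraries these were Ccl22 (0.34), Plin2 (-0.00911), Prdx1 (0.00648), Itgam (0.10), Rplp1 (0.0281), Trap1 (-0.0298) and the difference of Ccl7 from WT M2 (-0.075). With 25 libraries they were Ccl22 (0.35), Plin2 (-0.00770), Prdx1 (0.00886), Itgam (0.10), Rplp1 (0.0307) and Trap1 (-0.0341). With replicates 2 and 3 alone they were Itgam (0.0202) and Maf (0.0147). Over the 6 fits that left out 1 library, values that changed sign ranged from -0.87 to 1.39 for Nos2, -0.81 to 0.25 for Ccl22, -0.00225 to 0.55 for Top2a, -0.14 to 0.14 for Itgam, -0.0941 to 0.0464 for Maf, -0.0776 to 0.00660 for Glud1 and -0.44 to 0.35 for the Csta2 difference from WT M2. The causes were not tested. Genes near the floor of 3 counts were not measurable in single libraries at this depth.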

Other observations

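Genes outside the lists also moved, and those named here were chosen after their values were seen. Podoplanin (Pdpn), a surface glycoprotein, read 19.5, 18.2 and 24.5 CPM in control and 109, 112 and 100.5 CPM in MPNST-CM (log2 fold change 2.36 ± 0.12, adjusted p = 2.19e-13), the proteoglycan Vcan 9.94, 10.3 and 9.34 CPM and 44.1, 45.9 and 38.3 CPM (log2 fold change 2.12 ± 0.14, adjusted p = 1.31e-11), and the apoptotic cell bridging protein Edil3 4.17, 7.43 and 4.56 CPM and 16.9, 18.9 and 20.7 CPM (log2 fold change 1.81 ± 0.17, adjusted p = 9.97e-09). Ptprf, a receptor phosphatase, had 0, 1 and 1 counts in control and 47, 58 and 47 in MPNST-CM. The myo-inositol transporter Slc5a3 read 13.98, 11.7 and 14.8 CPM and 64.03, 52.7 and 53.2 CPM (log2 fold change 2.06 ± 0.12, adjusted p = 1.36e-12), and the betaine transporter Slc6a12 read 2.94, 3.65 and 2.96 CPM and 12.5, 11.1 and 10.03 CPM (log2 fold change 1.81 ± 0.21, adjusted p = 2.76e-07), while the taurine transporter Slc6a6 was not called (1630.4, 1333 and 1405 CPM against 1215, 1478 and 1402 CPM).

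Among falls outside the lists, Calcoco1 read 45.9, 41.6 and 40.4 CPM and 14.1, 11.4 and 10.7 CPM (log2 fold change -1.82 ± 0.13, adjusted p = 6.96e-11), Klhl24 104, 99.02 and 94.3 CPM and 36.6, 36.4 and 35.5 CPM (log2 fold change -1.45 ± 0.11, adjusted p = 1.11e-10), Ypel3 137, 140.2 and 126 CPM and 62.4, 50.6 and 54.8 CPM (log2 fold change -1.26 ± 0.10, adjusted p = 7.90e-10), and Pink1, a mitophagy kinase, 66.4, 74.01 and 73.5 CPM and 29.5, 28.1 and 31.4 CPM (log2 fold change -1.26 ± 0.12, adjusted p = 9.70e-09). The macrophage-secreted protein Cd5l fell from 248, 245 and 247 CPM to 109, 96.9 and 90.6 CPM (log2 fold change -1.32 ± 0.11, adjusted p = 6.19e-10), the receptor Gpr34 from 29.2, 35.4 and 34.1 CPM to 9.61, 6.92 and 7.01 CPM (log2 fold change -2.07 ± 0.16, adjusted p = 2.39e-10), and the sterol hydroxylase Cyp27a1 from 52.7, 55.6 and 56.4 CPM to 12.9, 14.2 and 15.1 CPM (log2 fold change -1.97 ± 0.13, adjusted p = 3.27e-11). In each of these genes the 3 libraries of a group did not overlap with the others, as for 33.3% of all genes.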
